A study of Mus musculus with 7 samples.

Results

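Th, Ddc, Dbh, Tph2 and Hdc make the monoamine transmitters, Slc18a2, Slc6a3 and Slc6a4 carry them across membranes, and Maoa breaks them down. These 9 genes were taken by symbol from the 49164 genes with counts in bulk RNA-seq of the mouse medial amygdala, and 8 of the 9 passed a filter on low counts. Libraries came from 3 female and 4 male Trap-Ai9 mice, written TRAP2-Ai9 in the design text of the series, with all animals sacrificed at 2 months of age. In such mice a Cre recombinase driven from the Fos gene acts only when tamoxifen is present, and cells active at that time stay red fluorescent. Pieces of both hemispheres holding the area named DIMPLE in the labels, which do not expand that name, were dissected from coronal slices under fluorescence and imaged. DIMPLE took 20 to 25% of the female pieces and 18 to 40% of the male pieces, so each library is a mixture of that area and the tissue around it.

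All 7 mice carried the same alleles and received tamoxifen, so there was no untreated or unlabelled control. Per the sample labels, it was given to females at 6 weeks of age and to males on postnatal day 24, but the design text names day 24 with no separate age for females. Sex, the age at labelling and the interval from labelling to sacrifice therefore cannot be told apart, and "male" and "female" below stand for these 2 groups.

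Dopamine and noradrenaline are made from tyrosine in steps: tyrosine hydroxylase (Th) makes L-DOPA, aromatic L-amino acid decarboxylase (Ddc) makes dopamine, and dopamine beta-hydroxylase (Dbh) makes noradrenaline. Serotonin needs tryptophan hydroxylase (Tph2) and then the same decarboxylase, and histamine is made from histidine by Hdc. The cell bodies of most dopamine, noradrenaline and serotonin neurons lie in the midbrain and brainstem, and those of histamine neurons in the hypothalamus. The amygdala receives their axons, which hold little of their messenger RNA. Ddc transcripts are also known in forebrain cells that lack Th.

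**Figure D1:**
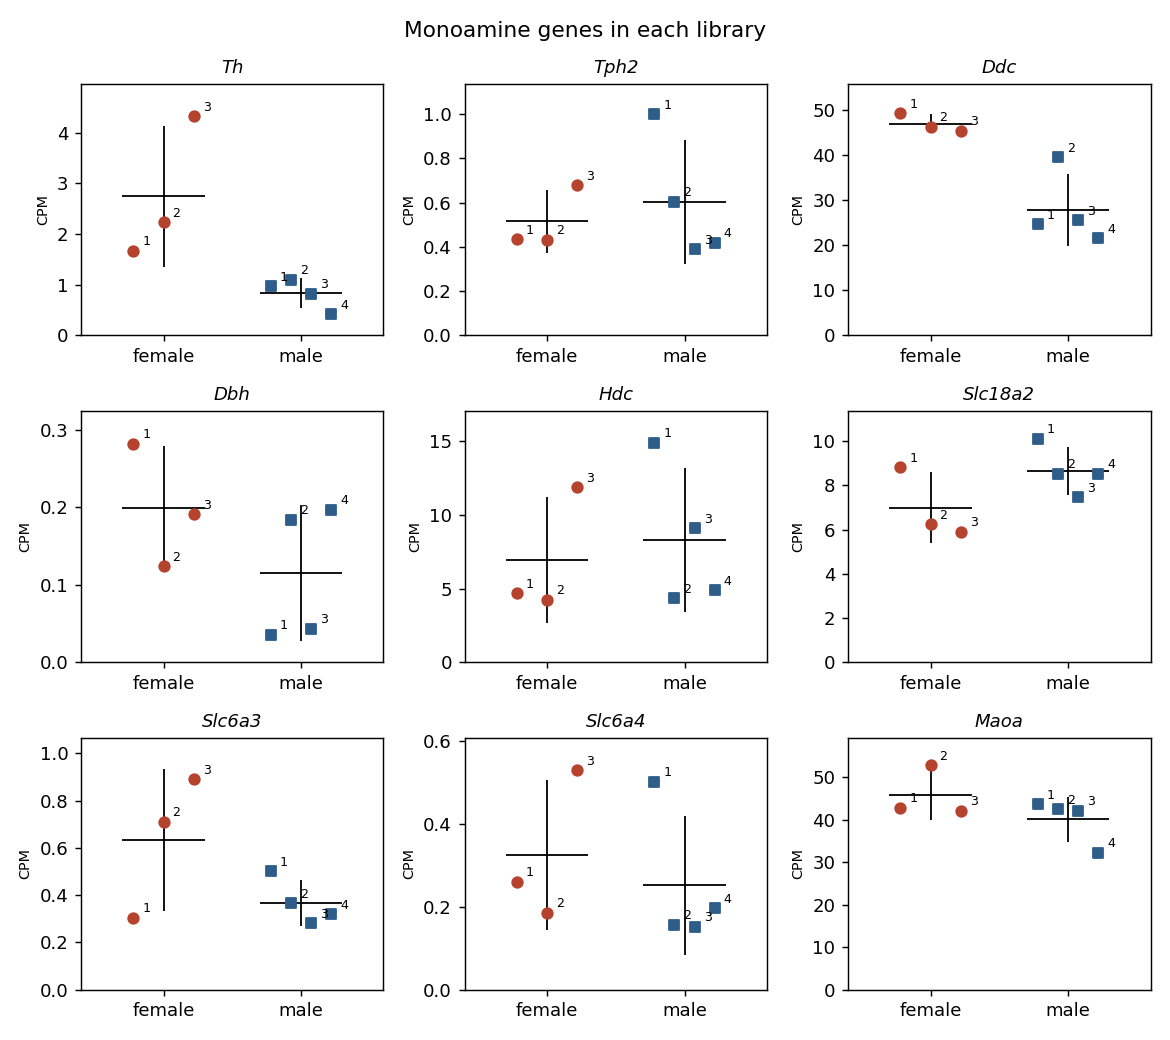
Level of each of the 9 genes in CPM (scaled counts, linear axis from 0) in the 3 female (circles) and 4 male (squares) libraries, numbered by replicate. The horizontal line is the group mean and the vertical line 1 SD; the groups are apart in the panels of Th and Ddc and overlap in the other 7.

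Libraries held 29049604 to 46494588 counts. Levels are given as CPM, counts scaled to a common library size, after TMM scaling, a correction for differences in composition between libraries. Levels of different genes were set side by side only as CPM per kilobase of exon. Markers of neighbouring or mixed-in tissue differed between libraries. The summed level of 11 hypothalamic neuron genes (among them Hcrt, Pmch, Avp, Oxt and Pomc) was 389 CPM in female replicate 3 and 14.1 to 45.9 CPM in the other 6 libraries. The 3 choroid plexus genes summed to 14292 CPM in male replicate 3 and to 24.5 to 275 CPM elsewhere. The 6 genes of cortical-type glutamatergic neurons summed to 63.2 to 107 CPM in females and 168 to 908 CPM in males. The 4 genes of GABAergic neurons, the main neurons of the medial amygdala, summed to 1088 to 1998 CPM in females and 829 to 1560 CPM in males. In bulk tissue, fewer cells of a type and less RNA per cell cannot be told apart.

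Per length, the breakdown enzyme Maoa and the shared decarboxylase Ddc were the most abundant of the 9 genes. Their means were 10.2 ± 1.43 and 8.07 ± 2.64 CPM per kb (SD, n = 7 libraries). Slc18a2 followed at 1.52 ± 0.286 CPM per kb, Hdc at 1.21 ± 0.672 and Th at 0.697 ± 0.558. Tph2 stood at 0.197 ± 0.0769 CPM per kb, Slc6a3 at 0.14 ± 0.0679, Slc6a4 at 0.0625 ± 0.036 and Dbh at 0.056 ± 0.0331.

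Of these 8 neighbouring pairs only Ddc and Slc18a2 had ranges that did not overlap, 4.82 to 11.1 against 1.13 to 1.94 CPM per kb. The order of the means is therefore firm across that step and not between the other neighbours, although Th exceeded Tph2, and Slc6a3 exceeded Slc6a4, within every one of the 7 libraries. Maoa and Ddc changed places when the longest transcript was used as the length, since Ddc then stood at 17.8 CPM per kb.

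**Figure D2:**
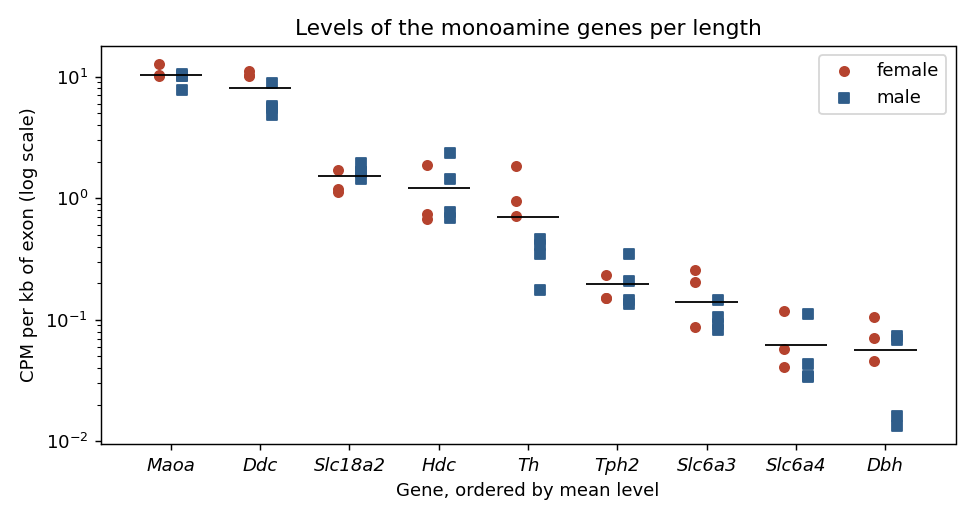
Levels of the 9 genes in CPM per kb of exon (log axis) in each female (circle) and male (square) library, ordered by the mean over 7 libraries (horizontal line). Maoa and Ddc stand above the rest, and the only step with no overlap between neighbours lies between Ddc, whose lowest library is 4.82, and Slc18a2, whose highest is 1.94.

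The low transcripts included several that mark monoamine cell bodies, though Slc18a2 and Hdc, also genes of such cells, ranked 3 and 4 per length. Slc6a3, the dopamine transporter, Slc6a4, the serotonin transporter, and Dbh had 42, 25 and 13 reads at most in any library. Slc6a2, the noradrenaline transporter, had 0 to 2 reads per library. Of 14 listed transcription factors of these neurons, some were as scarce. Pitx3 of midbrain dopamine neurons had 0 to 6 reads, Fev of serotonin neurons 0 to 4 and Phox2a of noradrenaline neurons 0 to 2. Passing the filter were 5 others: Nr4a2 ranged over the libraries from 6.37 to 37.3 CPM and Lmx1a from 0.108 to 8.68. En2 ran from 0.261 to 1.13 CPM, Gata2 from 1.21 to 3.15 and Gata3 from 0.97 to 3.41. The 8 markers fixed for midbrain and brainstem monoamine neurons, which include Slc6a3 and Slc6a4, summed to 0.869 to 1.76 CPM in females and 0.629 to 1.3 CPM in males. At these counts a difference between the groups in any 1 of these markers was hard to detect. Mast cells also express Hdc. Of 8 mast cell markers only Kit, which neurons express too, passed the filter, and Fcer1a had no read in any library.

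The comparison of males with females asked which of the genes differed between the groups. Th and Ddc, the first enzymes of dopamine synthesis, had lower values in every male than in any female, but neither passed edgeR's test after adjustment over all genes. None of the 8 tested genes had a Benjamini-Hochberg adjusted p under 0.05, against 0.0245% of all 20420 tested genes (5 genes). At an unadjusted p under 0.05, 2 of the 8 were called, both lower in males, against 4.71% of all genes in either direction and 2.03% lower in males. The estimates were lower in males for 5 of the 8, with 47.7% of all genes estimated lower. Every male lay below every female for 2 of the 8, against 2.78% of all genes, and every male above every female for none, against 2.54%. The median log2 fold change of the 8, male over female, was -0.32, beside 0.01 for all genes tested.

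Th, the rate-limiting enzyme of catecholamine synthesis (ENSMUSG00000000214, chromosome 7, 142446489 to 142484865, minus strand, GRCm39), had 77, 72 and 204 reads in female replicates 1 to 3, or 1.67, 2.23 and 4.32 CPM. It had 27, 42, 38 and 17 reads in male replicates 1 to 4, or 0.968, 1.1, 0.824 and 0.418 CPM. The highest male stayed below the lowest female, and female replicate 3 stood above the rest. The means were 2.74 ± 1.4 CPM (SD, n = 3) in females and 0.828 ± 0.296 CPM (SD, n = 4) in males. The log2 fold change was -1.73 ± 0.44 (SE) by edgeR's quasi-likelihood test, with adjusted p = 0.569.

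The call on Th depended on the test. A DESeq2 fit of the same counts gave -1.73 with an adjusted p of 0.0193, among 0.153% of 18937 genes called lower in males. In the authors' deposited table the log2 fold change, female over male, was 1.73 with an adjusted p of 0.0274, and 0.132% of 28808 genes were higher in females at their adjusted p under 0.1. At an adjusted p under 0.05, the call of the DESeq2 fit made here did not hold without female replicate 3 (-1.25, adjusted p = 0.716). Nor did it hold without female replicate 2 (-1.85, adjusted p = 0.0783) or male replicate 4 (-1.51, adjusted p = 0.2). With percent DIMPLE as a further term DESeq2 gave Th -1.55 (adjusted p = 0.95). Female replicate 3 was also the library with the high hypothalamic sum, whose part in the Th values was not tested. Without it the log2 fold change by edgeR was -1.24 with adjusted p = 0.976, and females 1 and 2 still lay above all 4 males.

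Ddc (ENSMUSG00000020182, chromosome 11, 11764101 to 11848144, minus strand, GRCm39), which decarboxylates both L-DOPA and the serotonin precursor, was more abundant per length than Th in every library and steadier. Its levels were 49.3, 46.3 and 45.4 CPM in female replicates 1 to 3 and 24.6, 39.5, 25.5 and 21.5 CPM in male replicates 1 to 4. The females lay within a narrow band, 3 males stood well under it and male replicate 2 close to it. The means were 47 ± 2.06 CPM (SD, n = 3) and 27.8 ± 8.02 CPM (SD, n = 4), a female to male ratio of 1.69. By edgeR the log2 fold change was -0.76 ± 0.21 (SE, adjusted p = 0.667).

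The DESeq2 fit gave Ddc an adjusted p of 0.226, and the authors' deposited table gave 0.76, female over male, with an adjusted p of 0.334. Leaving out male replicate 2 moved the estimate to -0.98, with an adjusted p of 0.0926 by edgeR and 0.0017 by DESeq2. The sum of the GABAergic markers moved with it in part: among males it was highest in male replicate 2 (1560 CPM), where Ddc was highest, yet female replicate 3 had 1088 CPM of these markers and 45.4 CPM of Ddc. The part of the cell mixture in the Ddc difference was not tested. The count columns of males carry the prefix mv (replicates 1 and 2) or mb (replicates 3 and 4), which the labels do not explain. In an edgeR fit that kept all 7 libraries, the mv males against females gave -1.40 for Th and -0.55 for Ddc. The mb males against females gave -2.13 and -1.0, and none of these was called. An antisense gene within Ddc, 1700042O10Rik, had 34 reads over all 7 libraries against at least 687 for Ddc in each.

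Since Th and Ddc were the pair that lay lower in males, their promoter sequences are shown, the 150 bases before each annotated start, 5′ to 3′ on the gene's strand (RefSeq, GRCm38.p6, not the build of the gene coordinates above). Capitals mark TGACGTCA, the cyclic AMP response element, in Th. In Ddc they mark TATAAA, read on the opposite strand as TTTATA, at the upstream start, and CCAAT, read on the opposite strand as ATTGG, at the downstream start.
Th, chr7:142899996-142900145, minus strand: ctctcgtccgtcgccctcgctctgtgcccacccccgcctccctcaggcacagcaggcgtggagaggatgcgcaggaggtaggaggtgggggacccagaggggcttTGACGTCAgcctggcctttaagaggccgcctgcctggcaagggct
Ddc upstream start, chr11:11898145-11898294, minus strand: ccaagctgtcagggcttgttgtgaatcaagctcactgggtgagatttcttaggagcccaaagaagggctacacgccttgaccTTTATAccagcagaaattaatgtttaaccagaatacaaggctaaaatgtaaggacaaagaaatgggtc
Ddc downstream start, chr11:11890409-11890558, minus strand: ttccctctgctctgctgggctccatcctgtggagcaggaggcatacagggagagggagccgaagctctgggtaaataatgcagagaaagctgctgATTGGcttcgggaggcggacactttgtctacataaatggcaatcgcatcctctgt
All 9 genes matched the RefSeq table, with 10 starts between them. In the 250 bases before the start, on either strand, TGACGTCA was found in 1.55% of 32851 windows and among the 10 only in that of Th. TATAAA was in 12.4% of all windows and in those of Ddc and Tph2, and CCAAT in 33.8% and in those of Dbh and Ddc. GGGCGG, the GC box, was in 32.7% of all windows and in 6 of the 10, those of Hdc, Maoa, Slc18a2, Slc6a3, Slc6a4 and Th. Th and Ddc shared none of these 4 motifs. The matches are descriptions of the sequence, not measured binding.

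**Figure D3:**
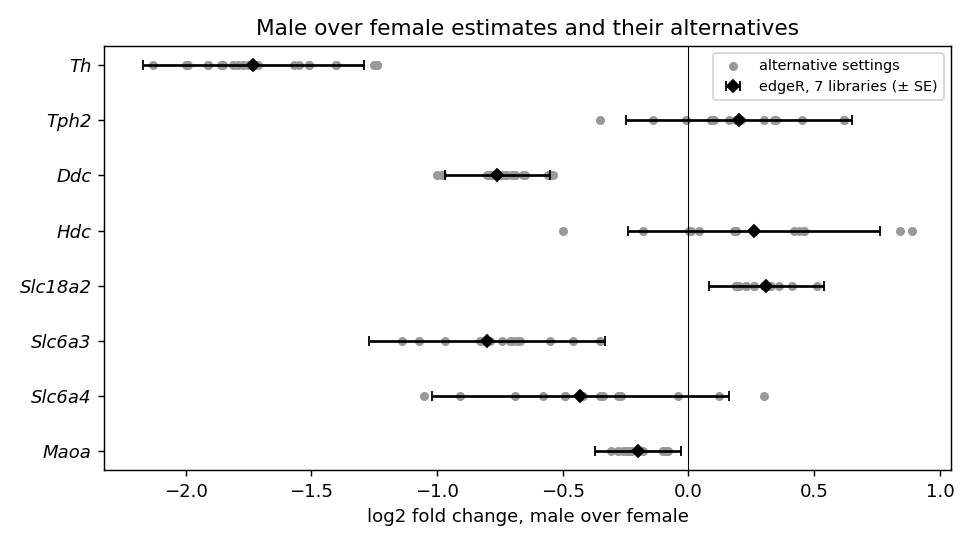
Log2 fold change, male over female, of the 8 tested genes: diamonds and bars are the edgeR estimate on all 7 libraries ± SE, and grey points the estimates under the alternatives, which include leaving out each library. Every estimate for Th (-2.13 to -1.24) and Ddc (-1.0 to -0.54) lies below 0, as do those of Slc6a3 (-1.14 to -0.35) and Maoa (-0.31 to -0.08). Those of Slc18a2 (0.19 to 0.51) lie above 0, and those of Tph2, Hdc and Slc6a4 lie on both sides.

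Dbh, the enzyme of the step from dopamine to noradrenaline (ENSMUSG00000000889, chromosome 2, 27055245 to 27073212, plus strand), did not pass the filter. It had 13, 4 and 9 reads in females and 1, 7, 2 and 8 in males, overlapping groups in which every library is near the limit of counting. Tph2, the neuronal tryptophan hydroxylase (ENSMUSG00000006764, chromosome 10, 114914546 to 115020927, minus strand), stood at 0.434, 0.433 and 0.678 CPM in females and 1, 0.603, 0.39 and 0.418 CPM in males. The groups overlapped, with male replicate 1 the highest. The log2 fold change of Tph2 was 0.20 ± 0.45 (SE, adjusted p = 1 by edgeR).

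Hdc (ENSMUSG00000027360, chromosome 2, 126435587 to 126461219, minus strand), which makes histamine in a single step, varied widely between libraries within each group. Females had 4.69, 4.27 and 11.9 CPM and males 14.9, 4.35, 9.11 and 4.91 CPM. Female replicate 3 and male replicates 1 and 3 were high and the other 4 libraries low, so the groups overlapped throughout. Males over females, the log2 fold change was 0.26 ± 0.50 (SE, adjusted p = 1 by edgeR). Female replicate 3 was also the library with the highest hypothalamic sum, while male replicates 1 and 3, with 22.4 and 14.1 CPM of hypothalamic markers, were among the lowest. The mast cell sum, nearly all Kit, was 6.08 CPM in female replicate 3, 9.07 CPM in male replicate 1 and 20.8 CPM in male replicate 3, and 5.34 to 24.7 CPM in the libraries with low Hdc. The part of either cell type in the Hdc values was not tested.

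Among the transporters none was called and all 3 groups of values overlapped. Slc18a2, the vesicular transporter that loads dopamine, noradrenaline, serotonin and histamine into vesicles (ENSMUSG00000025094, chromosome 19, 59249328 to 59284444, plus strand), had 8.82, 6.25 and 5.91 CPM in females and 10.1, 8.52, 7.46 and 8.52 CPM in males. Female replicates 2 and 3 lay under all males and female replicate 1 among them. Its log2 fold change was 0.31 ± 0.23 (SE, adjusted p = 1 by edgeR), above 0 where that of Th and Ddc was below 0. Per length it exceeded Slc6a3 and Slc6a4 in every library.

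Slc6a3 (ENSMUSG00000021609, chromosome 13, 73684866 to 73726791, plus strand), the transporter that returns dopamine to the cell, had 14, 23 and 42 reads in females and 14, 14, 13 and 13 in males. Females 2 and 3 lay above the males, and female 1 did not in CPM (0.304, against 0.282 to 0.502 in males). Its log2 fold change was -0.80 ± 0.47 (SE, adjusted p = 1 by edgeR). Slc6a4, its serotonin counterpart (ENSMUSG00000020838, chromosome 11, 76889429 to 76923166, plus strand), had 12, 6 and 25 reads in females and 14, 6, 7 and 8 in males. One library of each group was high and the rest low, and the log2 fold change was -0.43 ± 0.59 (SE, adjusted p = 1 by edgeR).

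Maoa, monoamine oxidase A of the outer mitochondrial membrane (ENSMUSG00000025037, chromosome X, 16485937 to 16554057, plus strand), was the steadiest of the 9, with a coefficient of variation of 14% over 7 libraries, against 80.1% for Th. Females had 42.8, 52.8 and 42.1 CPM and males 43.6, 42.4, 42.1 and 32.2 CPM. Most libraries, 5 of 7, lay between 42.1 and 43.6 CPM, with female replicate 2 above them and male replicate 4 below. The means were 45.9 ± 5.99 (SD, n = 3) and 40.1 ± 5.29 CPM (SD, n = 4), and the log2 fold change was -0.20 ± 0.17 (SE, adjusted p = 1 by edgeR).

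The other genes of the pathway were read from 6 companion lists, 51 genes of which 36 passed the filter. None was called after adjustment, against 0.0245% of all genes. At an unadjusted p under 0.05, 3 were called higher in males (Nr4a2, Slc29a4 and Etv1) and 1 lower (Dlx2), against 4.71% of all genes in either direction. Their median log2 fold change was 0.11. Every male lay above every female for 2, Slc29a4 and Nr4a2, against 2.54% of all genes.

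Slc29a4, the plasma membrane monoamine transporter, a low-affinity and high-capacity carrier, was one of these. It had 13.6, 13.7 and 12.8 CPM in females and 20.1, 20.1, 82.8 and 38.2 CPM in males. The females were nearly equal, and the males spread upward from them to male replicate 3, which also held the high choroid plexus sum. The choroid plexus sum was 14292 CPM in male replicate 3 and next highest, at 275 CPM, in female replicate 3, where Slc29a4 was lowest. That sum was lowest in male replicate 4 (24.5 CPM), where Slc29a4 was 38.2 CPM. The part of choroid plexus in the Slc29a4 values was not tested. The log2 fold change was 1.60 ± 0.47 (SE, adjusted p = 0.708 by edgeR), and 0.96 with adjusted p = 0.689 without male replicate 3. In the authors' deposited table it was lower in females by 1.60 with an adjusted p of 0.0859, among 0.364% of genes lower in females at their adjusted p under 0.1. Slc22a3, an organic cation transporter that also clears monoamines, had means of 1.56 ± 0.421 (female) and 0.932 ± 0.387 CPM (male), with a log2 fold change of -0.74 ± 0.42 (SE, adjusted p = 1 by edgeR).

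Nr4a2 encodes Nurr1, a nuclear receptor that midbrain dopamine neurons need and that cortical neurons also express. It had 6.45, 6.37 and 7.5 CPM in females and 15.8, 8.39, 15.2 and 37.3 CPM in males, with male replicate 4 the highest. That library also had the highest sum of cortical-type glutamatergic markers, 908 CPM, and the part of that tissue in the Nr4a2 values was not tested. The log2 fold change was 1.50 ± 0.44 (SE, adjusted p = 0.693 by edgeR), and 0.95 with adjusted p = 1 without male replicate 4. For Nr4a2 the authors' deposited table gave an adjusted p of 0.085.

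Nr4a2 thus ran opposite to Th in these estimates. Of the 14 transcription factors of monoamine neurons, 9 did not pass the filter, among them Pitx3, Lmx1b, En1 and Fev, and Foxa2 had no read. Lmx1a, a dopamine neuron factor also known in choroid plexus, stood at 8.68 CPM in male replicate 3 and at 0.108 to 0.734 CPM in the other males.

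The 5 forebrain dopaminergic factors, which specify dopamine neurons of the olfactory bulb, were all tested, with 2 estimates higher and 3 lower in males. Etv1 averaged 54.7 ± 5.49 CPM over females and 83.6 ± 25.5 CPM over males (log2 fold change 0.61 ± 0.23, adjusted p = 0.913 by edgeR). Dlx2, a factor of forebrain GABAergic cells, stood at 49.7 ± 7.06 and 29.4 ± 14.2 CPM (log2 fold change -0.76 ± 0.31, adjusted p = 0.969 by edgeR).

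Th and Tph2 need the cofactor tetrahydrobiopterin. All 8 genes of its synthesis and recycling passed the filter and none was called, with 6 estimates higher in males, 2 lower and a median of 0.27. Gch1, the rate-limiting enzyme of the cofactor, averaged 2.11 ± 0.401 CPM over females and 2.66 ± 0.553 CPM over males (log2 fold change 0.33 ± 0.30, adjusted p = 1 by edgeR). Pcbd1, which helps recycle the cofactor, stood at 41.2 ± 4.89 and 27.4 ± 9.66 CPM (log2 fold change -0.59 ± 0.26, adjusted p = 1 by edgeR), and Pts, which acts after Gch1, at 62.2 ± 14.2 and 84.8 ± 28.1 CPM.

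Of 6 other synthesis genes 3 passed the filter. Moxd1, a relative of Dbh whose own substrate is not established, averaged 145 ± 44.9 CPM over females and 106 ± 29.7 CPM over males, far above Dbh in reads. Its log2 fold change was -0.45 ± 0.26 (SE, adjusted p = 1 by edgeR). Tph1, the tryptophan hydroxylase of the pineal gland and gut, stood at 0.095 ± 0.0831 and 0.386 ± 0.227 CPM, and Aanat, which makes the melatonin precursor, at 1.3 ± 0.252 and 0.614 ± 0.365 CPM, neither called by edgeR at an unadjusted p under 0.05.

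The 12 other breakdown enzymes all passed the filter, with 9 estimates higher in males and 3 lower, where 47.7% of all genes were estimated lower. At an unadjusted p under 0.05 the list had 0 calls, a count near the 4.71% of all genes. Maob, the second monoamine oxidase, averaged 49 ± 9.38 CPM over females and 60.5 ± 24.5 CPM over males, with male replicate 3 highest at 97.1 CPM. Sult1a1, a sulfotransferase, and Aldh1a1, an aldehyde dehydrogenase of midbrain dopamine neurons, had the lowest p of the list, with estimates of 0.46 ± 0.30 and 0.48 ± 0.38 (SE, adjusted p = 1 each by edgeR).

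The second comparison asked whether levels followed the share of DIMPLE in the piece, with sex in the model. No gene of the 9 was called: none of the 8 tested had an adjusted p under 0.05 (0% of 20420 genes) or an unadjusted p under 0.05 (4.54% of all genes). The median slope of the 8 was 0.08 log2 units per 10 percentage points, beside 0.01 for all genes. Since females spanned only 20 to 25%, the slope rests mainly on the 4 males.

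Hdc came nearest, at 0.70 ± 0.35 log2 units per 10 points (SE, adjusted p = 0.897 by edgeR). In males its level followed the order of the shares, 4.35 CPM at 18%, 4.91 at 29%, 9.11 at 32% and 14.9 at 40%. Female replicate 3 lay off that order, with 11.9 CPM at 20%. Without male replicate 1, the piece with 40%, the slope was 0.38 (adjusted p = 1), and without female replicate 3 it was 0.79 (adjusted p = 0.83).

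Ddc had a slope of -0.28 ± 0.14 (SE, adjusted p = 0.897 by edgeR), which without male replicate 2, the piece with 18%, turned to 0.12. With percent DIMPLE in the model the male over female estimate of Ddc was -0.56 (adjusted p = 1) and that of Th -1.57 (adjusted p = 1). The slope of Th itself was -0.19 ± 0.35 (SE), that of Slc18a2 0.15 ± 0.18, that of Tph2 0.23 ± 0.34 and that of Slc6a4 0.62 ± 0.46, each with an adjusted p above 0.89. Maoa had a slope of 0.01 and Slc6a3 a slope that rounded to 0.

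**Figure D4:**
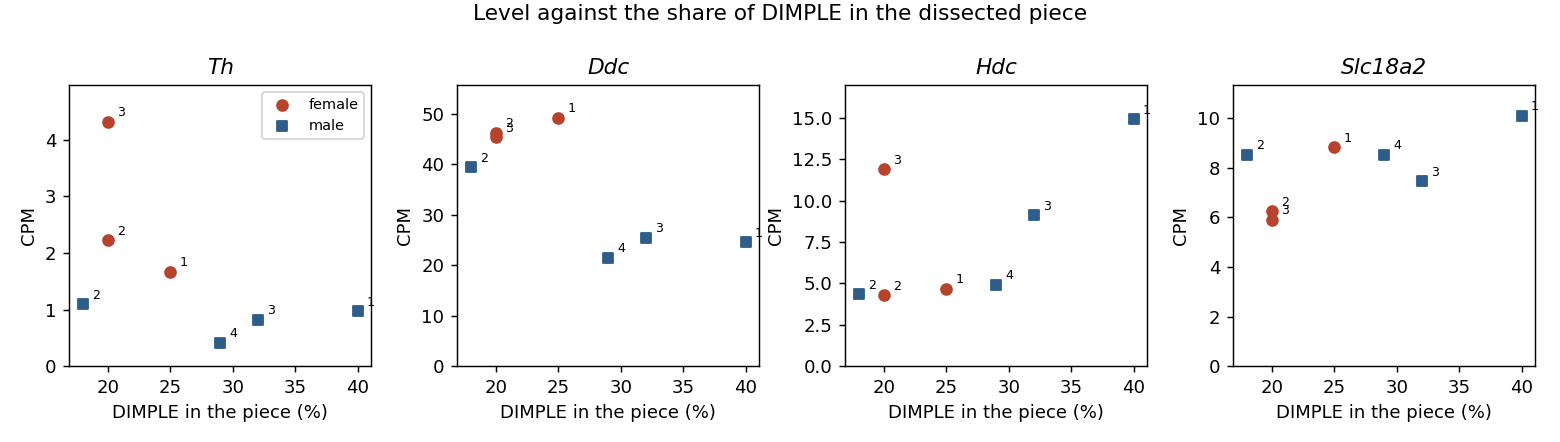
Level in CPM (linear axis from 0) against the percent of DIMPLE in the dissected piece for Th, Ddc, Hdc and Slc18a2, in female (circles) and male (squares) libraries numbered by replicate. Hdc rises from 4.35 to 14.9 CPM over the 4 males in the order of their shares while female replicate 3 stands apart at 11.9 CPM, and Ddc is high in the pieces of 18 to 25%.

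Among the 36 tested companions, 3 had a slope above 0 (Gata3, Hnmt and Pts) and 2 below 0, among them Dlx2, at an unadjusted p under 0.05, against 4.54% of all genes, and none after adjustment. Hnmt, which methylates and so inactivates histamine in the brain, had a slope of 0.41 (adjusted p = 0.897 by edgeR), of the same sign as that of Hdc. Gata3, a factor of brainstem serotonin neurons and of other cells, had 0.74 and Pts 0.42. Dlx2 had -0.46. All 4 GABAergic markers also had slopes below 0.

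Levels of other genes were set beside those of each of the 8 genes by Pearson's r of log2 CPM over the 7 libraries, among 15633 genes with a mean of at least 1 CPM, as a description in points that share libraries and groups. Ddc was most like Avpr1a, the vasopressin receptor 1A gene (r = 0.99, mean 7.24 CPM in females and 2.43 in males), and Ass1, argininosuccinate synthase of arginine synthesis (r = 0.99, 59.5 and 34.2 CPM). Th was most like Megf6 (r = 0.97), and Hdc like 2410004P03Rik and Lrguk (r = 0.99 each). Slc18a2 was most like Setd7 (r = 0.97), Tph2 like Pmpcb (r = 0.98), Slc6a3 like Tas1r1 (r = 0.97), Slc6a4 like Clec11a (r = 0.98) and Maoa like Gm28455 (r = 0.98). Each is the highest value of a search over all those genes, so its size is no measure of a relation.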

How the data were processed

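The authors deposited 1 table for the series. Per the file headers it has columns of raw counts, of a normalized signal (counts over size factors), of the authors' comparison of females with males (log2 fold changes and p-values), and of its test statistics, a score. The submitters' processing notes name the build GRCm39 and the tools DESeq2 1.26.0, HTSeq 2.0.1, TopHat2 2.2.1 and cutadapt. Roles, strand setting and annotation release are not given in the sources used here, so reads of overlapping or antisense genes cannot be separated.

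Genes with low counts were removed by filterByExpr at its defaults (at least 10 counts in enough libraries and 15 in all), TMM factors were computed, and genes were tested with edgeR 4.0.16 (robust quasi-likelihood fit, R 4.3.3) with Benjamini-Hochberg adjustment over all genes. The slope was fitted per 10 percentage points of DIMPLE with sex as a covariate. Exon lengths came from GENCODE M21 (GRCm38). Scripts were tested on simulated counts. Alternatives were RLE or no scaling, no filter, DESeq2 1.42.0, limma-voom (limma 3.58.1), percent DIMPLE or the replicate number in the model, longest-transcript lengths and leaving out each library. Chosen after seeing the data were DESeq2 without each library and with percent DIMPLE (Th and Ddc), a split of the males by their column prefix, and leaving out female replicate 3 and male replicate 3 together.

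The 9 genes, the companion and marker lists and the tests were chosen with earlier results of these data known. All 9 genes are named. Of each companion list, the 2 genes of lowest p in each comparison were taken, with Maob, Slc6a2, Moxd1 and Gch1 in any case, and some genes that this rule names are not reported here. Pitx3, Fev, Phox2a and markers printed with values were named from their lists. Nothing in the labels says more than that libraries are separate samples, so p-values measure the spread between these samples.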

Additional observations from a re-analysis of the deposited data

Results flagged for a closer look

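In groups of 4 libraries, a value is listed here when its gap to the nearest other, as a share of the group's range, exceeds Dixon's critical value. Of 41 genes and marker sums examined in the males, 7 were listed. Chance lists about 1 in 20 where values are independent and normally distributed. These items share libraries, so 7 of 41 is no measure of an excess over chance. The 3 females were not examined this way, so a female library far from the others is not listed here.

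Among the monoamine genes, Slc6a4 stood at 0.502 CPM in male replicate 1 against 0.152 to 0.197 in the other males. Maoa stood at 32.2 CPM in male replicate 4 against 42.1 to 43.6. Of the other pathway genes, Maob stood at 97.1 CPM in male replicate 3 against 45.4 to 50.5. Aoc1, a diamine oxidase that degrades histamine, stood at 1.9 CPM in male replicate 1 against 0.195 to 0.369. Lmx1a stood at 8.68 CPM in male replicate 3 against 0.108 to 0.734. In that same library the choroid plexus sum was 14292 CPM against 24.5 to 39, and the sum of striatal projection neuron markers 283 CPM against 60.2 to 88.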

How the results depend on the processing

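Of the 9 genes, Th and Ddc kept a lower male estimate in all 25 alternatives each, and no edgeR or limma-voom setting called either. Every male lay below every female for both, so leaving out a library or splitting the males could hardly turn their sign. Slc6a3 and Maoa also kept a lower male estimate, and Slc18a2 a higher one, in all 17 alternatives of each. Genes called between the sexes, 5 in all with edgeR, numbered 122 with DESeq2 (1 of the 9 genes, against 0). They numbered 12 without the filter and 27 with the replicate block. Males with the column prefix mb against females gave 27, in a fit that kept the mv males. With 1 library left out the calls numbered 4 to 26, 26 being without male replicate 2. For the slope, 0 were called, 15 without the filter and 9 with the replicate block. Whether replicate numbers pair the samples could not be decided from the same-number correlations of deviations (0.307, 0.169 and 0.032), which are few. Pairs of unlike number ran from -0.465 to 0.303, and female replicate 2 correlated better with male replicate 3 (0.303) than with its own number. The males with prefix mb gave Slc29a4 a log2 fold change of 2.18 (adjusted p = 0.0318).

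Estimates between the sexes changed sign for Tph2 (-0.01 with DIMPLE in the model, -0.35 against the mb males, -0.14 to 0.45 leaving out 1 library), Hdc (-0.50 with DIMPLE, -0.18 to 0.89), Slc6a4 (0.30 without female replicate 3 and male replicate 3, -0.69 to 0.12 without 1), Lmx1a (-0.35 against the mv males, -0.56 to 3.42) and Maob (-0.03 to 0.43). Slopes changed sign leaving out 1 library for Th (-0.68 to 0.25), Ddc (-0.44 to 0.12), Slc6a3 (-0.58 to 0.16), Tph2 (-0.49 to 0.87), Maoa (-0.12 to 0.17), Dlx2 (-0.70 to 0.21), Nr4a2 (-0.82 to 0.94), Aoc1 (-0.34 to 1.80), Slc22a3 (-0.57 to 0.10), Slc29a4 (-1.01 to 1.18) and Tph1 (-0.03 to 1.36). With the block the slope was -0.13 for Slc18a2, 0.48 for Slc6a3 and 0.06 for Slc22a3. Leaving out both named libraries gave 0.07 for Slc6a3, -0.01 for Maoa and -0.0018 for Slc29a4. The Maoa slope, near 0, was -5.8e-05 with RLE, -0.01 without scaling, -0.02 without the filter, -0.01 with DESeq2 and -0.07 without sex. The cause of these changes was not tested. Per longest transcript, levels were 17.8 (Ddc), 1.81 (Slc18a2) and 0.101 (Slc6a4) CPM per kb. Slc6a4 was not tested without male replicate 1.

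The 3 females and 4 males, with DIMPLE shares that barely vary among females, limit both comparisons, and low counts limit Dbh, Slc6a3, Slc6a4 and Tph2.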
